A study of Bos taurus with 10 samples.

Results

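Interleukins are small secreted proteins through which immune and tissue cells signal to one another, and each acts through receptor chains on the receiving cell. The right ventricle of calves was examined here for every interleukin, interleukin receptor and natural antagonist on the array. Members were the probe sets whose only gene symbol in the platform annotation is IL followed by a digit, which gave 54 of the 24016 tested probe sets. They stand for 39 of 9155 named genes, and 11 of the 39 had more than 1 probe set. A probe set is a group of short probes that reads 1 or more transcripts on the Affymetrix Bovine GeneChip.

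Each of the 10 calves gave 1 array of right ventricular tissue, and all were male Holsteins that entered the study between postnatal days 3 and 7. The 5 control calves breathed ambient air at 1525 m. The 5 hypoxia calves, titled PH in the labels, were held at a reduced pressure equivalent to 4570 m. Both arms lasted 14 days, and no genetic modification or drug is given in the labels for either. Low oxygen narrows the lung arteries of cattle and loads the right ventricle, and controls at 1525 m are themselves above sea level.

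Array medians ran from 5.48 to 5.54 on the log2 scale. The RMA processing of the deposited values forces array distributions together, so this match is no check of the arrays. The 10 measured cardiac muscle markers had a list mean between 13.2 and 13.4 in all calves. Such markers cannot tell the right ventricle from other heart muscle. The first principal component, with 30.4% of the variance, separated the groups, and controls scored -28.0 to -13.6. On it hypoxia calves 173, 192 and 204 scored 9.79 to 13.9, and calves 178 and 199 lay farthest from the controls, at 34.4 and 46.1. Differences without calves 178 and 199 are given beside several genes in which they were highest. Leaving out the highest hypoxia values must lower such a difference, so the direction of that change is no result. In whole tissue, fewer cells of a type and less RNA per cell cannot be told apart. A probe set's signal depends on its probes as well as on its transcript, so levels of different genes are not compared, and the median of all probe sets serves only to mark dim ones. Signal above that median need not mean expression. Of 23 measured genes of organs other than heart, 17 lay below it, but the brightest, PRL, had a mean of 9.23.

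The IL-1 family holds the alarm cytokines of injured tissue. IL1A and IL1B bind the receptor IL1R1, which then recruits the accessory chain IL1RAP, while IL1RN occupies IL1R1 without signalling and IL1R2 is a decoy. IL18 signals through IL18R1, and IL33, which is stored in the nuclei of endothelial cells and fibroblasts, uses IL1RAP together with a receptor of its own. Most other interleukins signal through paired chains that activate JAK kinases and STAT transcription factors. These roles are known mainly from human and mouse.

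No interleukin probe set passed the test for a difference between hypoxia and control. By limma with Benjamini-Hochberg adjustment over all 24016 probe sets, 0 of 54 had an adjusted p of 0.05 or less, against 2.71% of all tested probe sets (1.65% higher in hypoxia and 1.07% lower). An unadjusted p under 0.05 was reached by 7 of 54, against 17.7% of all tested probe sets, with 6 higher in hypoxia (background 8.69%) and 1 lower (background 8.98%). Values of the groups did not overlap for 2 of 54, against 5.46% of all tested probe sets, both with hypoxia above control (background 2.71%). The share of members with a small p was below that of the array in both directions together and in the lower direction, and 11.1% against 8.69% in the higher. The median difference over the 54 was 0.03 on the log2 scale, against -0.02 over all tested probe sets, and individual differences ran from -0.38 to 1.33. Those nearest the threshold, IL18, IL1RN, IL1RAP and IL1R1, all belong to the IL-1 family.

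The intervals show what these arrays could have missed. For 47 of 54 probe sets the 95% interval of the difference lay within 1 log2 unit on either side of 0, so a 2-fold change in signal was outside it, and for 39 it lay within 0.5. The other 7 intervals, of IL18, IL1RN, IL1RAP, IL1R1, IL33, IL17RB and IL20RA, reached beyond 1. Only 15 of 54 members, from 13 genes, had a mean signal at or above the median of all probe sets, 5.52. A dim probe set may read mostly background, where the array understates changes, so a narrow interval there limits the signal more than the transcript.

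**Figure D1:**
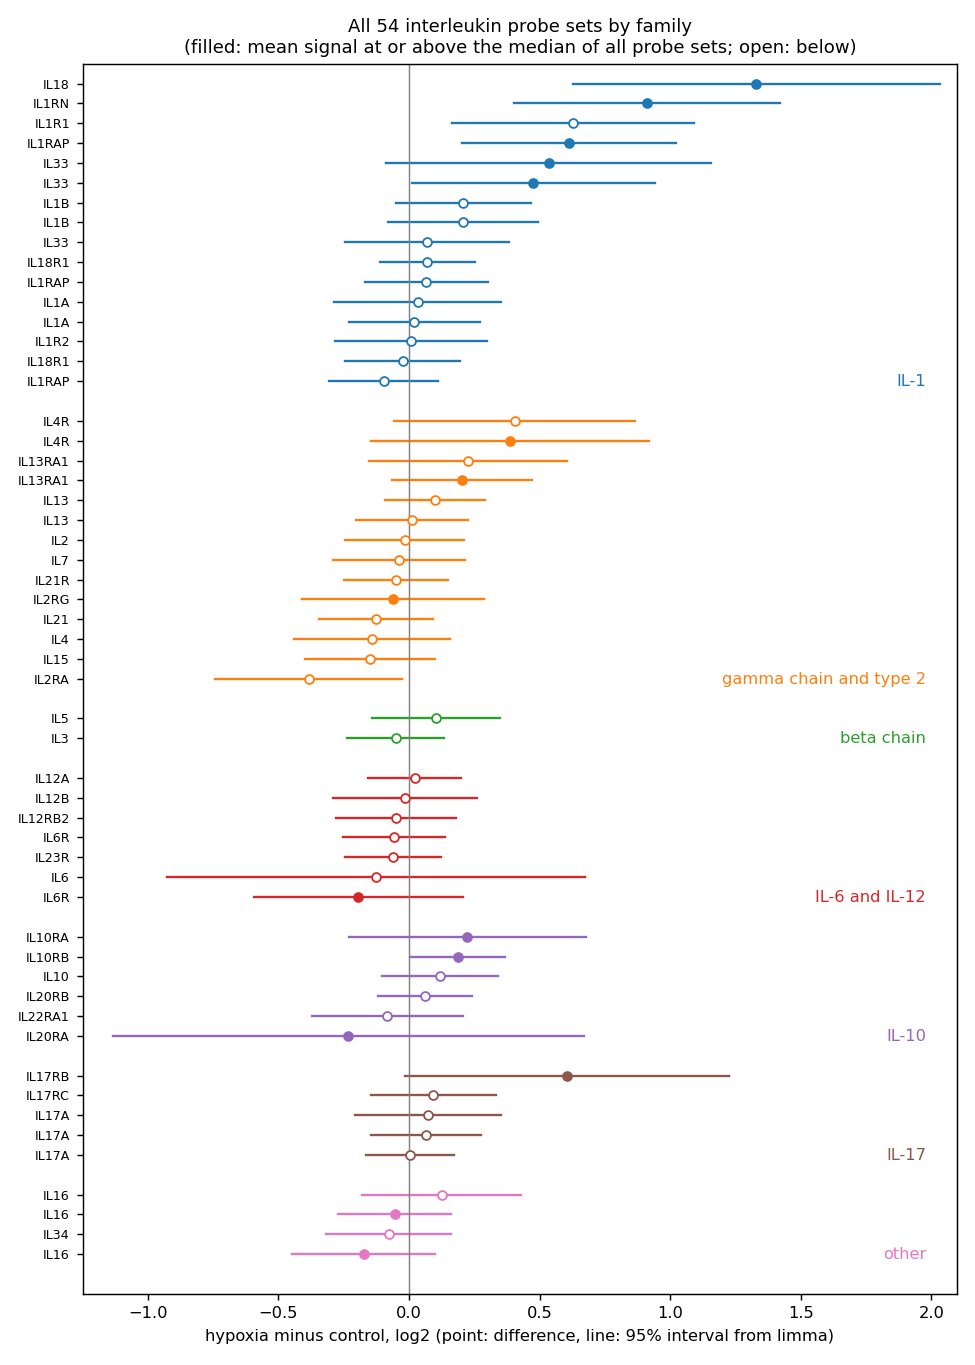
Difference between hypoxia and control (horizontal axis, log2 scale) for all 54 interleukin probe sets, 1 per row and grouped by family, with the 95% interval from limma as a line and n = 5 calves per group. Filled points have a mean signal at or above the median of all probe sets. The largest differences, from 0.48 to 1.33, are in the IL-1 family and IL17RB, and most open points lie near 0.

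IL18, a cytokine that drives interferon production by lymphocytes, had the largest difference of any member. Its signal was 5.92, 5.67, 4.96, 4.76 and 5.45 in control calves 176, 177, 180, 181 and 195. In hypoxia it was 7.02, 6.91, 6.62, 7.33 and 5.53 in calves 173, 178, 192, 199 and 204. Hypoxia calves 173, 178, 192 and 199 all exceeded every control, and calf 204 lay among the controls. The difference was 1.33 ± 0.32, or 2.51-fold, with a 95% interval of 0.63 to 2.03 (limma, adjusted p = 0.0518). Without hypoxia calf 204 it was 1.62 and passed (limma, adjusted p = 0.0152), and without hypoxia calves 178 and 199 it was 1.04 (limma, adjusted p = 0.240). Calf 204 had the lowest hypoxia value, so leaving it out had to raise the difference. IL18R1, the receptor chain that binds IL18, had differences of 0.07 ± 0.08 and -0.02 ± 0.10 on its probe sets, both of low signal (means of 2.91 and 2.72).

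IL1RN, the secreted antagonist of the IL-1 receptor, was higher in every hypoxia calf than in any control. The control values were 5.36, 4.94, 5.43, 5.52 and 5.47 in control calves 176, 177, 180, 181 and 195. The hypoxia values were 6.01, 6.72, 5.69, 6.96 and 5.90 in calves 173, 178, 192, 199 and 204. Calves 178 and 199 were well above the other hypoxia calves, whose lowest value stood just over the highest control. IL1RN differed by 0.91 ± 0.23, or 1.88-fold (95% interval 0.40 to 1.42; limma, adjusted p = 0.0636). Without calves 178 and 199 it differed by 0.52 (limma, adjusted p = 0.167). Without hypoxia calf 192 it differed by 1.05 and passed (limma, adjusted p = 0.0466). Calf 192 had the lowest hypoxia value, so leaving it out had to raise the difference.

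IL1R1 and IL1RAP, the chains of the signalling IL-1 receptor, also had positive differences. IL1RAP on its brightest probe set was 6.29, 6.22, 5.75, 6.05 and 5.29 in control calves 176, 177, 180, 181 and 195. In hypoxia its values were 6.59, 6.46, 6.39, 6.32 and 6.89 in calves 173, 178, 192, 199 and 204. The groups did not overlap, though the highest control and the lowest hypoxia calf, at 6.29 and 6.32, nearly touched, and calf 204 rather than 178 or 199 was highest. IL1RAP differed by 0.61 ± 0.19 (1.53-fold; limma, adjusted p = 0.108) and by 0.71 without calves 178 and 199 (adjusted p = 0.215). Its other probe sets had differences of 0.07 and -0.10 at mean signals of 2.39 and 2.47, and the mean of the gene's probe sets differed by 0.19.

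IL1R1 signal was 5.06, 5.30, 4.97, 4.66 and 5.07 in control calves 176, 177, 180, 181 and 195. Hypoxia values were 5.64, 5.72, 5.47, 6.37 and 5.01 in calves 173, 178, 192, 199 and 204. Calves 173, 178, 192 and 199 lay above every control and calf 204 fell among them, the same calf that was low for IL18. The difference was 0.63 ± 0.21 (1.55-fold; limma, adjusted p = 0.142), and it was 0.36 without calves 178 and 199 (adjusted p = 0.434). IL1R2, the decoy receptor, differed by 0.01 ± 0.13 (95% interval -0.28 to 0.30) at a mean signal of 3.08.

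**Figure D2:**
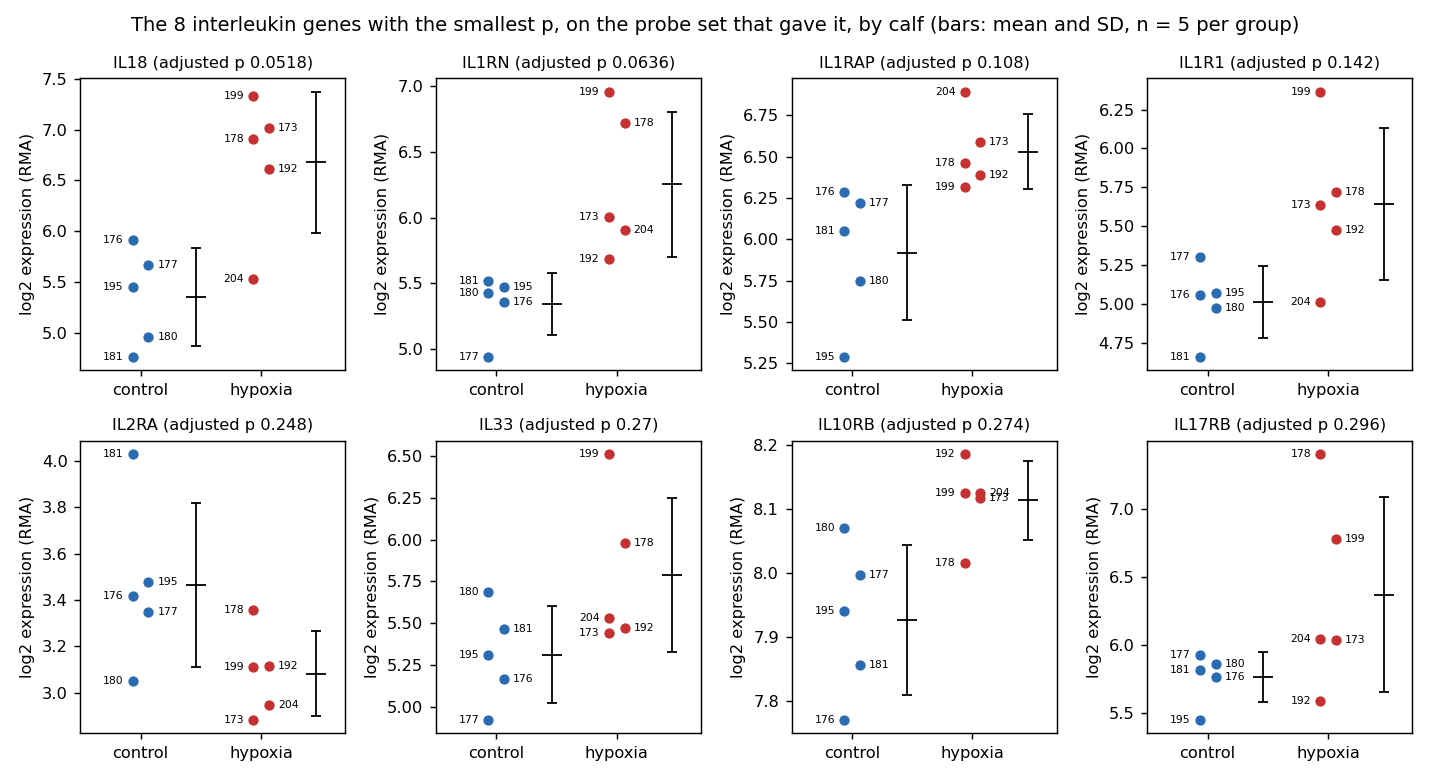
Signal in each calf (vertical axes, log2 expression; points labelled by calf number) for the 8 interleukin genes with the smallest p, on the probe set that gave it, with bars for the mean and SD of 5 calves per group. Groups are apart for IL1RN and IL1RAP and overlap for the others. Calf 199 is highest for IL18, IL1RN, IL1R1 and IL33, while calf 204 is low for IL18 and IL1R1.

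The ligands IL1A and IL1B showed little signal in either group. Control values of the brighter IL1B probe set ran from 2.81 to 3.32 and hypoxia values from 3.21 to 3.47, with a difference of 0.21 ± 0.12 (limma, adjusted p = 0.406), and the other probe set differed by 0.21 ± 0.13. IL1A differed by 0.02 ± 0.12 and 0.03 ± 0.15 on its probe sets. IL33 was 5.85, 5.91, 6.25, 5.96 and 5.49 in control calves 176, 177, 180, 181 and 195 on its brightest probe set. In hypoxia it was 5.87, 6.93, 6.08, 7.39 and 5.88 in calves 173, 178, 192, 199 and 204. Only calves 178 and 199 exceeded the controls. The difference of 0.53 ± 0.28 (limma, adjusted p = 0.368) became 0.05 without those calves (adjusted p = 0.949). The next brightest IL33 probe set also had only these calves above the controls, with a difference of 0.48 ± 0.21 that became 0.17 without them, and the third, at a mean signal of 2.77, differed by 0.07.

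In all, 14 of 16 IL-1 family probe sets had a difference above 0, and 5 of the 16 had an unadjusted p under 0.05, against backgrounds of 45.3% and 17.7% over all tested probe sets. The family was singled out after its values were seen, and probe sets of 1 gene are not independent, so these counts carry no test.

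Genes of IL-1 family signalling and ligand processing did not pass either. Of 20 measured genes in a list of adaptors, kinases, the inflammasome and NF-κB subunits, 0 rose and 0 fell, against 3.66% of all named genes called on their brightest probe set, and the list's median difference was 0.05. CASP1, the protease that cuts the precursors of IL1B and IL18 to their active forms, differed by 0.61 ± 0.25 (limma, adjusted p = 0.239), with 4.86 to 5.58 in controls, 5.41 to 5.66 in calves 173, 192 and 204, and 6.79 and 6.33 in calves 178 and 199, without which it was 0.20 (adjusted p = 0.713). SIGIRR, an inhibitory receptor of the family, differed by 0.40 ± 0.14 and TAB1, a partner of the kinase TAK1, by -0.40 ± 0.13, both without passing.

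Macrophages are a known source of IL18 and IL1RN, and the mean of their markers was highest in hypoxia calves 178 and 199. All 10 of 10 measured macrophage markers had differences above 0, against 45.3% of all tested probe sets, with a median of 0.55. Of the 10, 1 passed, against 3.66% of all named genes, and this was CD5L, which rose by 2.23 ± 0.42 (limma, adjusted p = 0.0208). CD5L missed the threshold in 6 of 20 alternatives. Among them were the fits without control calf 177 or 181 (limma, adjusted p = 0.0538 and 0.0504) and without hypoxia calves 178 and 199 (0.0706). It also missed with the run of calf numbers as a block (0.0600) and in the lower run alone (0.124). The last was the upper run alone, with 1 control, where CD5L rose by 2.23. The lower run is calf numbers 173 to 181 and the upper 192 to 204. This split was made here, and the labels give no batch. The list mean ran from 6.49 to 7.51 in controls and from 7.11 to 8.09 in hypoxia. CD5L was also the 1 marker of the 10 with a mean below the median signal of all probe sets, at 3.83 in controls and 6.07 in hypoxia. The macrophage list mean was 7.48, 8.09, 7.11, 7.95 and 7.71 in hypoxia calves 173, 178, 192, 199 and 204. IL18 in the same calves was 7.02, 6.91, 6.62, 7.33 and 5.53. Of 10 neutrophil markers 0 passed, against the same 3.66%. Their list mean ran from 4.17 to 4.82 in controls and from 4.16 to 5.16 in hypoxia, where calves 178 and 199 were again highest. The part of these cells in the IL18 and IL1RN differences was not tested.

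**Figure D3:**
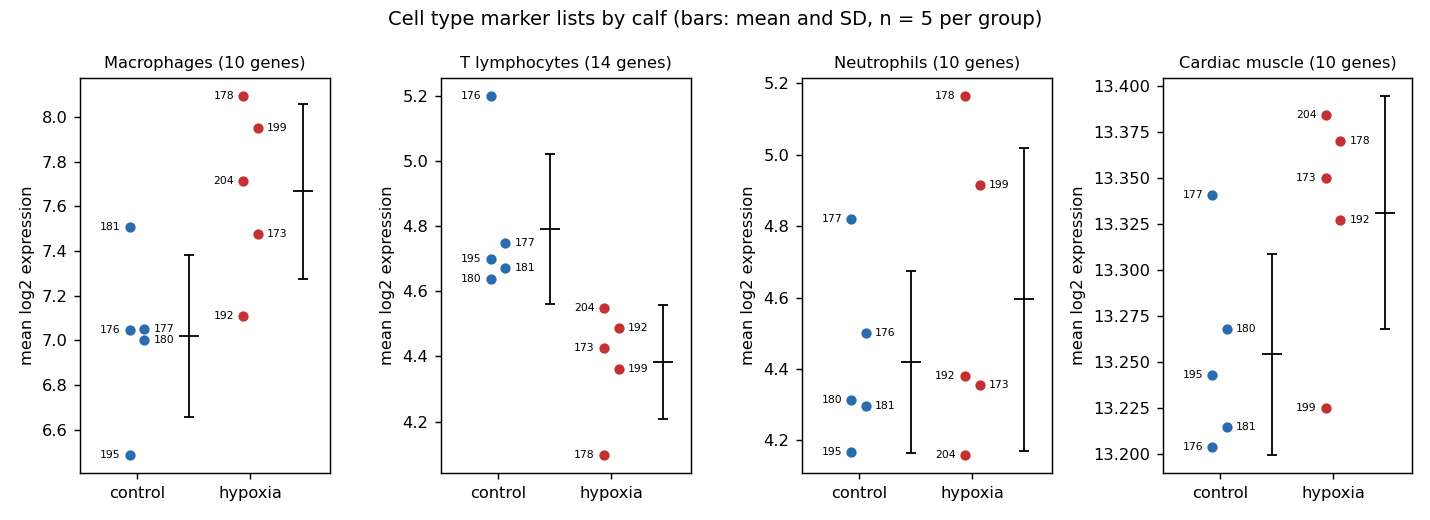
Mean log2 expression of 4 marker lists in each calf (vertical axes; points labelled by calf number), with bars for the mean and SD of 5 calves per group. Macrophage markers are highest in hypoxia calves 178 and 199, T lymphocyte markers are lower in every hypoxia calf than in any control, and cardiac muscle markers stay between 13.2 and 13.4.

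The receptors that share the common gamma chain serve mainly lymphocytes, and IL2RA was the only member of the 54 to be lower in hypoxia at an unadjusted p under 0.05. IL2RA, the high-affinity chain of the IL-2 receptor on activated and regulatory T cells, was 3.42, 3.35, 3.05, 4.03 and 3.48 in control calves 176, 177, 180, 181 and 195. In hypoxia it was 2.88, 3.36, 3.11, 3.11 and 2.94 in calves 173, 178, 192, 199 and 204. Control calf 181 was the highest, and control calves 177 and 180 lay within the hypoxia range. The difference was -0.38 ± 0.16 (limma, adjusted p = 0.248), and it was -0.24 without control calf 181 (adjusted p = 0.400), with all signals in the dim part of the range. None of the T lymphocyte markers passed (0 of 14, against 3.66% of all named genes), while 1 of 14 had a difference above 0, against 45.3% of all tested probe sets, and their median difference was -0.41. Their list mean was 4.64 to 5.20 in controls and 4.10 to 4.55 in hypoxia without overlap, and 13 of the 14 markers were below the median signal. Their part in the IL2RA difference was not tested.

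IL2RG, the gamma chain itself, differed by -0.06 ± 0.16 (95% interval -0.41 to 0.29; limma, adjusted p = 0.891), with 5.57 to 6.42 in controls and 5.65 to 6.21 in hypoxia. Ligands of this group, IL2, IL4, IL7, IL15 and IL21, had mean signals of 2.53 to 3.50 and differences of -0.15 to -0.02. IL15, which sustains natural killer cells, differed by -0.15 ± 0.11, and IL21 by -0.13 ± 0.10. IL21R differed by -0.05 ± 0.09.

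IL4R and IL13RA1 together form the receptor through which IL-4 and IL-13 reach cells other than lymphocytes. Both had a brightest probe set above the median signal of all probe sets, with small positive differences. IL13RA1 on its brightest probe set was 8.97, 9.21, 9.48, 9.12 and 9.20 in control calves 176, 177, 180, 181 and 195. Hypoxia values were 9.24, 9.65, 9.31, 9.57 and 9.21 in calves 173, 178, 192, 199 and 204. Control calf 180 exceeded 3 of the 5 hypoxia calves, and the difference was 0.20 ± 0.12 (limma, adjusted p = 0.434). Without calves 178 and 199, which were the highest, it was 0.06 (adjusted p = 0.901). The dimmer IL13RA1 probe set differed by 0.22 ± 0.17. IL4R was 7.07, 6.93, 7.63, 6.20 and 6.93 in control calves 176, 177, 180, 181 and 195. In hypoxia it was 7.07, 6.94, 7.26, 7.82 and 7.60 in calves 173, 178, 192, 199 and 204. The groups overlapped widely, with a difference of 0.39 ± 0.24 (adjusted p = 0.457), and the dimmer IL4R probe set differed by 0.41 ± 0.21. Both dimmer probe sets had their top value in calf 199. The ligand IL13 differed by 0.10 ± 0.09 and 0.01 ± 0.10 at mean signals of 2.98 and 2.94. Genes that IL-4 and IL-13 induce elsewhere gave 0 of 11 that rose or fell, against 3.66% of all named genes. Their median difference was -0.13, and the chemokine CCL26 came nearest with -0.47 ± 0.14 (limma, adjusted p = 0.109).

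Among the IL-10 family, IL10RB had the smallest SE of the 8 genes with the smallest p. IL10RB, a chain shared by the receptors of IL-10, IL-22 and the lambda interferons, was 7.772, 7.996, 8.071, 7.856 and 7.941 in control calves 176, 177, 180, 181 and 195. Hypoxia values were 8.117, 8.016, 8.185, 8.124 and 8.125 in calves 173, 178, 192, 199 and 204. Control calf 180 was just above the lowest hypoxia calf, 178, and the other hypoxia calves were higher than all controls. The difference was only 0.19 ± 0.08, or 1.14-fold (limma, adjusted p = 0.274). IL10RA, the ligand-binding chain for IL-10, differed by 0.22 ± 0.21 (adjusted p = 0.643), and IL10 itself by 0.12 ± 0.10, from 4.05 ± 0.15 (SD, n = 5) in controls to 4.17 ± 0.13 in hypoxia.

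IL20RA, a receptor chain for IL-19, IL-20 and IL-24, had a bright probe set with a wide spread inside both groups. Control values were 8.80, 7.41, 9.47, 7.89 and 7.92 in control calves 176, 177, 180, 181 and 195. Hypoxia values were 8.61, 7.52, 7.16, 8.87 and 8.16 in calves 173, 178, 192, 199 and 204. The calves spread over more than 2 log2 units without regard to group. The difference was -0.23 ± 0.41 (95% interval -1.13 to 0.67; limma, adjusted p = 0.831), and its SE was the largest of any member. IL20RB, its partner chain, stayed between 3.97 and 4.23 in all calves and differed by 0.06 ± 0.08, and IL22RA1 differed by -0.08 ± 0.13.

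IL17RB, a receptor chain for the IL-17 family cytokine IL-25, was 5.76, 5.93, 5.86, 5.82 and 5.45 in control calves 176, 177, 180, 181 and 195. In hypoxia it was 6.04, 7.40, 5.59, 6.78 and 6.04 in calves 173, 178, 192, 199 and 204. Calves 178 and 199 were far above the rest, and calf 192 fell within the control range. IL17RB differed by 0.60 ± 0.28 (limma, adjusted p = 0.296), which became 0.13 without those calves (adjusted p = 0.812). IL17RC differed by 0.09 ± 0.11, and the 3 IL17A probe sets by 0.003 to 0.07.

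IL6, the acute-phase cytokine, was low in all calves but 1. Its signal was 2.42, 2.75, 2.64, 2.70 and 4.56 in control calves 176, 177, 180, 181 and 195. Hypoxia values were 2.49, 3.07, 2.76, 3.52 and 2.59 in calves 173, 178, 192, 199 and 204. Control calf 195 exceeded every hypoxia calf, and the other controls lay at the low end of the range. The difference was -0.13 ± 0.37 (95% interval -0.93 to 0.68; limma, adjusted p = 0.903), and without control calf 195 it was 0.26 (adjusted p = 0.557). IL6R, its binding receptor, was 5.41, 6.53, 6.09, 6.24 and 5.93 in control calves 176, 177, 180, 181 and 195. In hypoxia it was 5.72, 6.05, 5.59, 5.96 and 5.91 in calves 173, 178, 192, 199 and 204. Hypoxia values lay inside the control range, with a difference of -0.19 ± 0.18 (adjusted p = 0.647). The IL-12 and IL-23 genes IL12A, IL12B, IL12RB2 and IL23R had mean signals of 2.28 to 3.25 and differences of -0.06 to 0.02.

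Genes known to be induced by IL-6 through STAT3 went in different directions, with a median difference of 0.19. Of 19 measured genes, 0 rose and 0 fell, against 3.66% of all named genes called. CEBPB, an acute-phase transcription factor, came nearest with -0.85 ± 0.21 (limma, adjusted p = 0.0567) and was lower in every hypoxia calf than in any control. CEBPB passed in 6 of 21 alternatives, which were median centring, quantile normalization, the filter on dim probe sets, array weights, and leaving out control calf 176 or 180 (adjusted p from 0.0273 to 0.0489). TIMP1, an inhibitor of matrix metalloproteinases, differed by 1.75 ± 0.53 (adjusted p = 0.106), with 8.37 to 8.84 in controls, 8.93 to 9.72 in calves 173, 192 and 204, and 11.5 and 12.3 in calves 178 and 199, without which it was 0.77 (adjusted p = 0.110). Of 15 measured genes of JAK and STAT signalling, 0 rose and 0 fell, against the same 3.66%, with a median of 0.23. SOCS4, a suppressor of cytokine signalling, differed by 0.33 ± 0.10, STAT5B, a transducer of cytokine signals, by 0.46 ± 0.18 and PIAS3, an inhibitor of STAT3, by 0.26 ± 0.11, all without passing.

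Cytokines and receptors related to these families but named otherwise gave 0 of 13 that rose or fell, against 3.66% of all named genes. Their median difference was 0.09. OSMR, the receptor for oncostatin M in the IL-6 family, was 6.14 to 6.55 in controls, 6.51 to 6.91 in calves 173, 192 and 204, and 7.39 and 8.10 in calves 178 and 199, with a difference of 0.71 ± 0.25 (limma, adjusted p = 0.164) that was 0.29 without those calves (adjusted p = 0.388). CXCL8, the neutrophil chemokine once named interleukin 8, was 3.13 to 3.64 in controls and 3.14 to 6.50 in hypoxia, highest in calf 199, and its difference of 0.96 was 0.13 without calves 178 and 199 (limma, adjusted p = 0.374 and 0.841).

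The remaining members signal outside these families. IL16, a chemoattractant for CD4+ cells, differed by -0.05 ± 0.10 on its brightest probe set (limma, adjusted p = 0.836), by -0.17 ± 0.13 on the next and by 0.13 ± 0.14 on the dimmest. IL34, another ligand of the macrophage growth factor receptor, differed by -0.08 ± 0.11. IL3 and IL5, ligands of the common beta chain, differed by -0.05 ± 0.09 and 0.11 ± 0.11 at mean signals of 2.44 and 2.50.

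Within the hypoxia group, calf 199 was the highest calf for 20 of 54 member probe sets, 37.0%, where it was highest for 23.3% of all tested probe sets. Calf 192 was highest for 5 of 54, or 9.26%, against 15.4%. No test was made of these shares, since probe sets of 1 calf share its array.

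Calls on IL18 and IL1RN depended on the setting. IL18 passed in 4 of 22 alternatives and IL1RN in 2 of 22, none of the other named interleukin genes passed in any, and the differences of IL18 and IL1RN stayed above 0 in all. Leaving out dim probe sets, which adjusts over 12008 rather than 24016 tests, gave adjusted p = 0.0334 for IL18 and 0.0441 for IL1RN (limma). Both passed that filter only through their hypoxia values, since their control means of 5.35 and 5.34 were below its limit of 5.52, so these calls are no independent check. The passes of IL18 without hypoxia calf 204 and of IL1RN without hypoxia calf 192 each left out that gene's lowest hypoxia value. They are no independent check either.

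**Figure D4:**
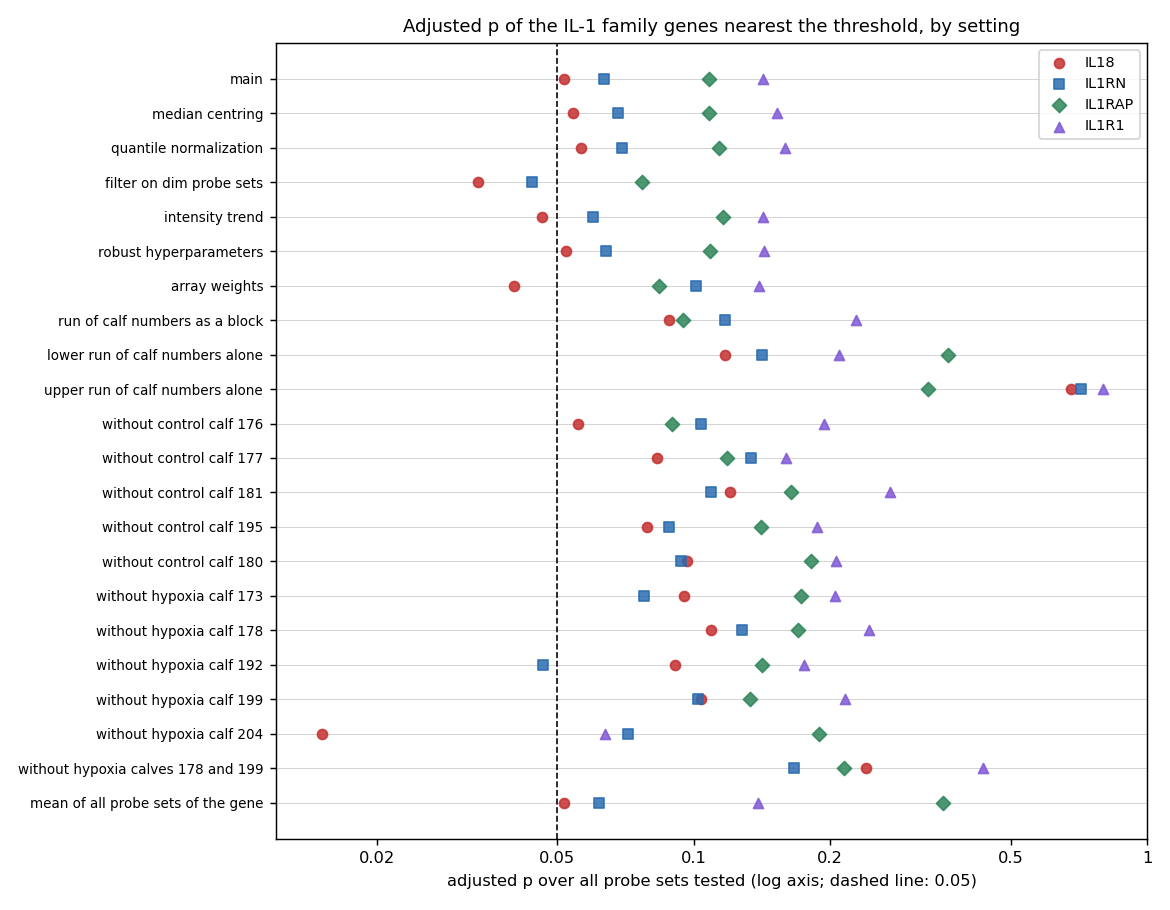
Adjusted p (horizontal log axis, limma with Benjamini-Hochberg adjustment) of IL18, IL1RN, IL1RAP and IL1R1 under the reported fit, at the top, and each alternative fit, 1 per row, with a dashed line at 0.05. IL18 is left of the line in 4 alternative fits and IL1RN in 2, while IL1RAP and IL1R1 are right of it in every row shown, and IL1R1 is below the signal limit of the filtered fit.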

How the data were processed

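Right ventricular RNA of 10 calves was hybridised to Affymetrix Bovine GeneChip arrays, 1 array per calf. The deposited values are log2 expression that the authors obtained with RMA, per the submitters' processing notes. The software and probe set definitions are not given in the sources used here. The method forces array distributions together and can compress bright values. The smaller table repeats values of the larger without difference, so the larger was used.

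Of 24128 probe sets, 112 Affymetrix controls were left out and 24016 entered the fit in limma 3.58.1 under R 4.3.3 (lmFit, eBayes, two-sided, Benjamini-Hochberg over all tested, adjusted p of 0.05 or less). Calf numbers of the groups are not shared, and no pairing was used. Calves are separate animals, and their number limits the precision. Errors are SE of the difference or, in figures, SD. The procedure was tested on simulated data. Figures used matplotlib 3.10.9 in Python 3.11.15.

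Gene names came from the platform annotation, and all 39 member genes were found by Entrez identifier in the table of cattle assembly ARS-UCD2.0. No coordinates are given, since no build is named for the probe sets. The members and all gene lists were chosen with earlier results of these data known. Member genes were named when among the 16 with the smallest p or the 8 with the brightest probe set, or when in a list of 26 genes named whatever their result, of which 8 were not analysed here. Where not stated, the brightest probe set stands for a gene. Up to 4 genes with the smallest p were eligible from each pathway list. CXCL8 was chosen after its values were seen, as were the probe sets of members outside the rule.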

Additional observations from a re-analysis of the deposited data

Results flagged for a closer look

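In 9 of 108 groups of 5 calves, 1 calf lay far from the others of its group, judged by its gap to the nearest calf as a share of the group's range (Dixon's ratio above its 95% critical value). Chance gives this in about 1 of 20 groups.

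Control calf 195 had an IL6 signal of 4.56, against 2.42 to 2.75 in control calves 176, 177, 180 and 181. IL1RN was 4.94 in control calf 177, below the 5.36 to 5.52 of the other controls. Hypoxia calf 199 stood out on the dimmer probe sets of both chains of the IL-4 and IL-13 receptor, with 5.05 for IL4R against 4.16 to 4.26 and 5.45 for IL13RA1 against 4.51 to 4.74. For IL21R, control calf 195 had 5.57 where its group otherwise spanned 5.40 to 5.45.

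The other 4 cases follow. The dimmest IL16 probe set was 3.95 in control calf 181 against 3.22 to 3.43. The brighter IL1A probe set was 3.30 in control calf 180 against 3.58 to 3.66. A dim IL1RAP probe set was 2.67 in control calf 177 against 2.23 to 2.32. IL2 was 2.39 in hypoxia calf 192 against 2.54 to 2.58.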

How the results depend on the processing

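The count of interleukin probe sets higher in hypoxia, 0 in the reported fit, was 2 with the filter on dim probe sets (IL18 and IL1RN, whose control means are below the filter's limit, so that their hypoxia values carried them through), 1 with an intensity trend and 1 with array weights (IL18 in both), and 0 to 1 over the fits that left out 1 calf (IL1RN without hypoxia calf 192, IL18 without hypoxia calf 204). The count of probe sets lower in hypoxia was 0 in every alternative run. Hypoxia calves 192 and 204 had the lowest hypoxia values of IL1RN and IL18, so leaving them out had to raise those differences. Of all tested probe sets, 2.71% were called in the reported fit, 5.59% with the filter, 2.63% with an intensity trend and 3.15% with array weights. The share was 1.68% without hypoxia calf 192 and 1.65% without hypoxia calf 204. It was 0.904% with the run of calf numbers as a block, 0.129% in the lower run alone and 0.645% without hypoxia calves 178 and 199. These last fits called few probe sets anywhere on the array. Median centring, quantile normalization, robust hyperparameters, the run of calf numbers as a block, either run alone, and leaving out hypoxia calves 178 and 199 gave 0 in both directions, and the other deposited table holds the same values. The filter tests 15 of the 54 members with a median difference of 0.22, which is raised by selection, since 3 of the 15 (IL18, IL1RN and an IL33 probe set) passed only through higher hypoxia values and 0 only through control values. IL18 differed by 1.42 with the block (adjusted p = 0.0882), by 1.64 in the lower run of calf numbers (4 control, 2 hypoxia calves) and by 1.04 in the upper (1 control, 3 hypoxia), where the lone control is assumed to vary like the others and 0 of 24016 probe sets passed, with 2578 at an unadjusted p under 0.05. IL1RN differed by 0.93, 1.05 and 0.71 in the same fits. Of 517 fits of 24 named genes, 20 changed the sign of a difference that never passed, in 6 genes. No paired analysis was possible because control and hypoxia calves share no numbers in the labels. Most members are dim, and for these the signal over background limits what could be seen.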

Other observations

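Several members are neighbours in the cattle reference annotation, and some neighbours, but not all, had unlike differences. IL1R2 and IL1R1 are adjacent, with no protein-coding gene between them, and IL18R1 follows after IL1RL2 and IL1RL1. IL1R1 differed by 0.63 ± 0.21 between hypoxia and control, IL1R2 by 0.01 ± 0.13 and the brighter IL18R1 probe set by 0.07 ± 0.08. IL1A, IL1B and IL1RN lie in another cluster with 6 genes between IL1B and IL1RN, IL37 and IL36 genes among them, and differed by 0.02 ± 0.12, 0.21 ± 0.12 and 0.91 ± 0.23. IL4R and IL21R, also adjacent, differed by 0.39 ± 0.24 and -0.05 ± 0.09. Other neighbours all had small differences. IL12RB2 and IL23R differed by -0.05 and -0.06, and IL21 and IL2 by -0.13 and -0.02. IL4, IL13, IL5 and IL3 differed by -0.14, 0.10, 0.11 and -0.05. The probe sets of IL1R2, IL18R1, IL1A and IL1B were dim, with mean signals of 2.91 to 3.56, where the array understates changes. No difference between these genes was tested.

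Cytotoxic and other immune cell markers gave further values beside the interleukins. Of all named genes, 3.66% were called on their brightest probe set, and at that share a list this short can hold no call. CTSW, a protease of natural killer and cytotoxic T cells, fell by 1.04 ± 0.23 on the log2 scale (limma, adjusted p = 0.0350) and was the only 1 of 8 measured markers of these cells to pass. CTSW missed the threshold in 11 of 21 alternatives. Among them were leaving out control calf 176, 177 or 181 or hypoxia calf 178, 192, 199 or 204 (adjusted p up to 0.0891). It also missed with the run of calf numbers as a block (0.0884) and in the lower run alone (0.224). Without both hypoxia calves 178 and 199 the CTSW difference was -0.74 (0.152), and in the upper run alone it was -0.72. B lymphocyte and mast cell markers gave 0 of 4 and 0 of 3 that passed, with median differences of 0.01 and -0.07. Endothelial markers gave 0 of 9, with a median of 0.23. Of 10 fibroblast markers, PDGFRA passed and was lower in hypoxia, and the median was 0.09. PDGFRA missed the threshold in 5 of 21 alternatives, among them without control calf 177 or 181 (adjusted p = 0.0517 and 0.0596). It also missed with the block (0.0604) and in the lower run alone (0.166).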
